A study of Mus musculus with 6 samples.

Results

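The semaphorins, plexins and neuropilins were followed in sorted cells of the mouse embryo hindbrain at E10.5. Members are all genes whose single symbol in the array's probe table begins with Sema and a class number from 3 to 7, begins with Plxn and a letter from a to d, or is Nrp1 or Nrp2. They number 32 of 18193 measured genes, namely 20 semaphorins, 9 plexins, 2 neuropilins and Plxna4os1, a non-coding RNA that the symbol pattern also takes. Each gene is given by 1 probe set, the one with the highest mean over all 6 arrays.

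In the swap group (n = 3 arrays) the Hoxb1 locus made another Hox protein together with IRES-tauGFP, and in the control group (n = 3 arrays) it made the normal Hox-B1 protein with the same IRES-tauGFP tag. GFP-positive cells were sorted from dissected hindbrains of whole litters of each genotype at E10.5, so each array stands for pooled embryos, and its replicates are described as biologically independent. The reporter is driven by the Hoxb1 locus in both groups, so sorted cells are those with an active Hoxb1 locus, and the labels give the tissue as rhombomere 4. RNA was amplified and hybridized to Affymetrix Mouse Genome arrays, and the comparison asks whether transcripts differ when another Hox protein replaces Hox-B1.

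Semaphorins are secreted or membrane-bound guidance cues for growing axons and migrating cells. Plexins are their receptors and act on small GTPases and the cytoskeleton, and neuropilins are co-receptors that let most class 3 semaphorins signal through A-type plexins. In the mouse hindbrain, neuropilin-1 is known to relay Sema3a to the axons of the facial nerve and VEGF-A to the migrating facial motor neurons, which are born in rhombomere 4.

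Intensities were scaled by the submitters to a common mean, with array medians of 118 to 139 intensity units. Levels below are log2 intensities, given in the order of array numbers 1, 2 and 3 within each genotype, and a difference is the swap mean minus the control mean on that scale. They were fitted with limma over all 45037 probe sets, with the Benjamini-Hochberg adjustment and a threshold of 0.05. The table holds no detection calls, so a level is described only as at or above, or below, the median of all probe sets (log2 6.83, an intensity of 114). Of the 9 measured motor neuron markers, 7 stood at or above that level. The 2 others were Chat and Slc5a7, genes of acetylcholine synthesis and choline uptake.

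By the brightest probe set of each gene, most of the family was measured in the brighter part of the array. No member passed limma's test between the genotypes. Of the 32 members, 25 stood at or above the median level (61.4% of all genes did). A gene with more probe sets has more chances to reach that level, and the 32 members had 79, against 34945 for all 18193 genes. limma called 0 members at an adjusted p under 0.05, and it called 0% of all genes. The smallest adjusted p among the members was 1.00. At an unadjusted p under 0.05 there was 1 member, Plxna4os1, against 3.63% of all genes. The same member was the 1 of 32 whose 3 swap arrays lay on one side of all 3 control arrays, against 8.85% of all genes. limma's p-values set each difference against the spread between arrays of the same genotype, moderated over all probe sets. That spread holds differences between pooled litters and between sample preparations together.

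The median difference was 0.14 over the 32 members and 0.01 over all genes. The members' median deviation from their gene means was 0.10, 0.03 and 0.22 in the swap arrays, against -0.13, 0.08 and 0.06 in the control arrays. The genotypes overlapped, control array 1 was the 1 array below 0, and without both arrays numbered 1 the median difference was 0.06. The difference was above 0 in 22 members and below 0 in 10, and 50.9% of all genes had a difference above 0. The 95% interval lay within 2-fold in either direction for 16 members, against 43.4% of all genes. All 16 were at or above the median level, where 68.1% of all genes had such an interval. For the other 16 members the arrays leave a change of 2-fold or more possible. Members at or above the median level differed by -0.33 to 0.62, with a median SE of 0.30, against 0.27 for all genes at that level. In bulk RNA, fewer cells of a type and less RNA per cell cannot be told apart.

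**Figure D1:**
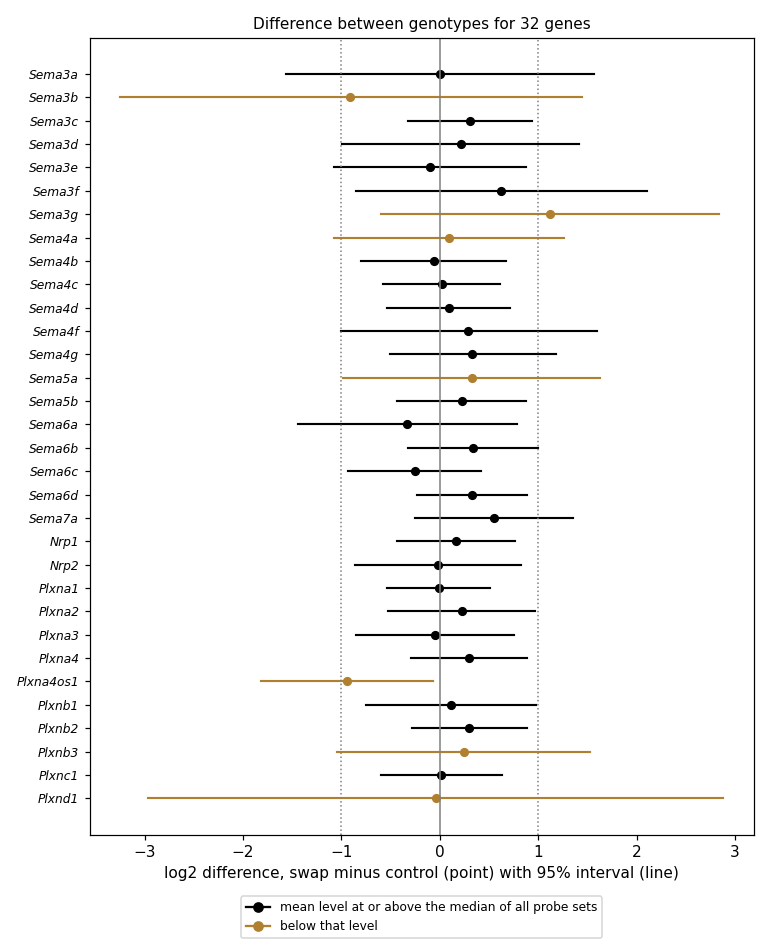
Log2 difference, swap minus control, for the 32 genes (points) with limma's 95% interval (lines), and dotted lines at a 2-fold difference in either direction. All intervals except that of Plxna4os1 (-1.82 to -0.07) include 0, and 16 lie within the dotted lines.

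The class 3 semaphorins, the secreted ligands of the vertebrate family, had 7 members, of which 5 stood at or above the median level and 0 passed limma's test. Their median difference was 0.21, and 1 of the 7 intervals, that of Sema3c, lay within 2-fold. Sema3a, the repellent ligand of neuropilin-1, stood at 7.39, 8.99 and 9.16 in the swap arrays, against 7.62, 8.99 and 8.93 in the control arrays. In both genotypes array 1 was low and arrays 2 and 3 were close together, so the groups overlapped throughout. The difference for Sema3a was 0.00 (SE 0.63, 95% interval -1.56 to 1.57).

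Sema3c, a ligand known for guiding cardiac neural crest, was steadier, at 8.69, 8.45 and 8.42 in the swap arrays, against 8.56, 7.97 and 8.11 in the control arrays. Its difference was 0.31 (SE 0.25, 95% interval -0.32 to 0.94), and swap array 1 and control array 1 were the highest of their groups. Sema3d, a further secreted ligand, stood at 7.12, 7.99 and 7.80 in the swap arrays, against 6.52, 8.04 and 7.72 in the control arrays, with control array 1 the lowest of the 6 and a difference of 0.21 (SE 0.49, 95% interval -0.99 to 1.41), or -0.25 without that array. Sema3e, which binds plexin D1 without a neuropilin, stood at 6.61, 6.48 and 7.71 in the swap arrays, against 6.77, 7.14 and 7.20 in the control arrays. Swap array 3 was its highest, and the other swap arrays lay below all control arrays, with a difference of -0.10 (SE 0.39, 95% interval -1.08 to 0.87). Its other probe sets, all below the median level, gave 0.06, -0.71 and 2.35 (SE 0.98). The mean over all 4 probe sets gave 0.40.

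Sema3f, the repellent ligand of neuropilin-2, stood at 7.33, 7.34 and 7.61 in the swap arrays, against 7.55, 7.40 and 5.46 in the control arrays. The 3 swap arrays and control arrays 1 and 2 lay close together, and control array 3 lay far below them. The difference was 0.62 (SE 0.60, 95% interval -0.85 to 2.10), and without control array 3 it was -0.05. Its other probe sets, both below the median level, gave 1.14 (SE 0.88) and 0.26 (SE 0.80). In the brighter of these, control array 3 was the highest of the 6 arrays, at 7.92. Sema3g and Sema3b lay just below the median level. Sema3g, a ligand of neuropilin-2, stood at 7.22, 7.38 and 7.36 in the swap arrays, against 6.63, 7.32 and 4.65 in the control arrays, with a difference of 1.12 (SE 0.70, 95% interval -0.60 to 2.84), and without control array 3 it was 0.35. Sema3b stood at 4.20, 7.81 and 7.06 in the swap arrays, against 7.14, 7.61 and 7.04 in the control arrays. Its difference of -0.91 (SE 0.95, 95% interval -3.25 to 1.44) became 0.17 without swap array 1, the 1 array that lay far below the rest.

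The class 4 semaphorins span the membrane and mostly signal through B-type plexins. Of 6 members 5 stood at or above the median level, 3 had an interval within 2-fold, and 0 passed limma's test, with a median difference of 0.09. Sema4b stood at 11.28, 10.74 and 10.71 in the swap arrays, against 11.28, 10.61 and 11.03 in the control arrays, with a difference of -0.06 (SE 0.30, 95% interval -0.80 to 0.67). Sema4c, a ligand of plexin B2, stood at 11.06, 10.73 and 10.55 in the swap arrays, against 10.83, 10.86 and 10.60 in the control arrays, and its difference was 0.02 (SE 0.24, 95% interval -0.58 to 0.61). Sema4d, the ligand of plexin B1, stood at 9.64, 9.63 and 9.14 in the swap arrays, against 9.57, 9.36 and 9.22 in the control arrays, with a difference of 0.09 (SE 0.25, 95% interval -0.54 to 0.71). Across all 6 arrays these 3 genes spanned 0.50 to 0.67 log2 units, and their genotypes overlapped.

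Sema4f, found on neurons, spread more widely, at 8.0, 7.42 and 8.94 in the swap arrays, against 7.14, 8.49 and 7.85 in the control arrays. Array 1 of the control group was lowest and array 3 of the swap group highest, with a difference of 0.29 (SE 0.53, 95% interval -1.01 to 1.60). Sema4g stood at 9.06, 9.40 and 9.21 in the swap arrays, against 9.30, 9.13 and 8.25 in the control arrays, with control array 3 below the other 5 arrays. Its difference was 0.33 (SE 0.34, 95% interval -0.51 to 1.18), and it was 0.01 without control array 3. Sema4a, known from immune cells, lay below the median level, between 6.43 and 7.05 in the swap arrays and between 5.65 and 7.28 in the control arrays.

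The class 5 semaphorins carry thrombospondin repeats next to the semaphorin domain, and the class 6 and class 7 members are bound to the membrane, Sema7a through a lipid anchor. Sema5b stood at 9.73, 9.42 and 9.41 in the swap arrays, against 9.24, 9.01 and 9.66 in the control arrays, with a difference of 0.22 (SE 0.27, 95% interval -0.44 to 0.87). Sema5a lay below the median level, between 6.38 and 6.72 in the swap arrays and between 5.12 and 7.08 in the control arrays. All 4 class 6 members stood at or above the median level. Sema6a, a ligand of plexins A2 and A4, stood at 9.44, 9.98 and 10.74 in the swap arrays, against 9.77, 10.69 and 10.70 in the control arrays. Array 1 was the lowest of each genotype, and the difference was -0.33 (SE 0.45, 95% interval -1.44 to 0.78), or -0.03 without swap array 1.

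Sema6b, a ligand of plexin A4, stood at 8.83, 8.43 and 9.09 in the swap arrays, against 8.44, 8.24 and 8.64 in the control arrays, with a difference of 0.34 (SE 0.27, 95% interval -0.32 to 1.00). Sema6c stood at 7.35, 7.95 and 7.72 in the swap arrays, against 7.70, 7.88 and 8.21 in the control arrays, with a difference of -0.25 (SE 0.27, 95% interval -0.93 to 0.42), and swap array 1 was the lowest of the 6. Sema6d, a ligand of plexin A1, stood at 10.85, 11.10 and 11.05 in the swap arrays, against 10.60, 10.51 and 10.90 in the control arrays. Control array 3 was its only control array within the range of the swap arrays, and the difference was 0.33 (SE 0.23, 95% interval -0.23 to 0.89). Sema7a, the ligand of plexin C1 and of an integrin, stood at 8.68, 7.78 and 8.08 in the swap arrays, against 7.31, 7.81 and 7.77 in the control arrays. Swap array 1 was its highest, the difference was 0.55 (SE 0.32, 95% interval -0.25 to 1.35), and it was 0.30 without that array. Of these 7 genes of classes 5 to 7, limma called 0.

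**Figure D2:**
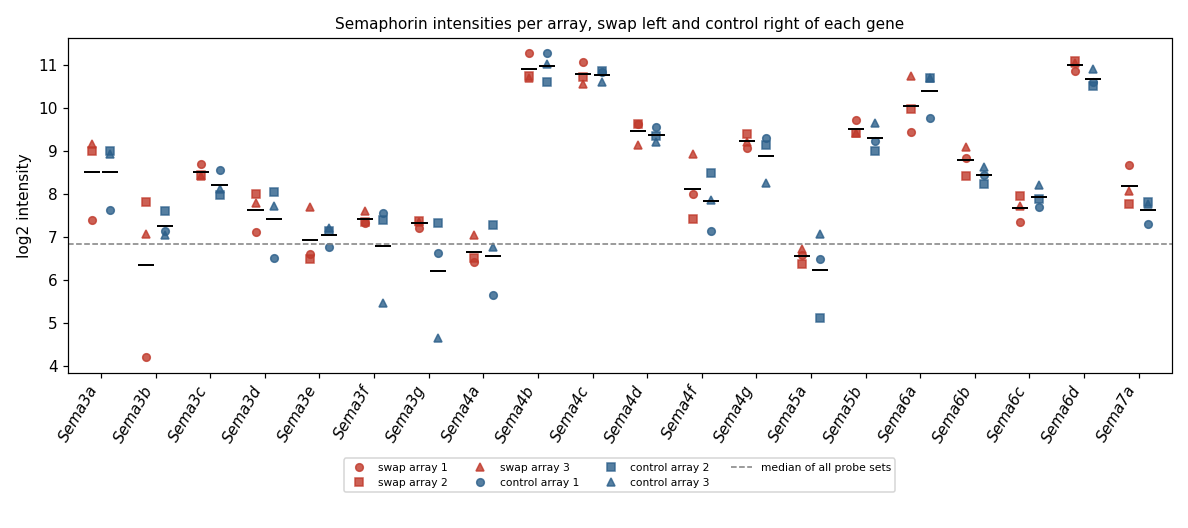
Log2 intensity of the 20 semaphorins in each array (points), with swap arrays left and control arrays right of each gene, group means as black bars and the median of all probe sets (6.83) as a dashed line. Swap and control points overlap for all 20 genes, and single low arrays stand out for Sema3b (4.20 in swap array 1), Sema3g (4.65 in control array 3) and Sema3f (5.46 in control array 3).

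Hox proteins bind DNA together with TALE partners at sites that the letters TGATNNAT describe, and these letters were searched on both strands of the promoter windows in the RefSeq table (GRCm38.p6), which run from 250 bases before to 50 bases after a gene's start. Of the members 26 had a window, 37 windows in all, and 1 window (2.70%) held the letters, against 8.85% of all 32851 windows. That window belongs to 1 of the 2 listed starts of Sema6d, and its match runs from base -111 to base -104 relative to the start. It is printed because it is the single match in the family, from chr2:124653450-124653497 on the plus strand, with the match in capitals.
Sema6d: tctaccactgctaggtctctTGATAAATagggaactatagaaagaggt
The match is a run of letters, not a measured site, and Sema6d did not pass limma's test between the genotypes.

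Both neuropilins stood at or above the median level in every array, each with an interval within 2-fold. Nrp1, the co-receptor of Sema3a and of VEGF-A, stood at 11.40, 11.13 and 10.81 in the swap arrays, against 10.90, 10.98 and 10.98 in the control arrays. The control arrays lay close together and inside the range of the swap arrays, and the difference was 0.16 (SE 0.24, 95% interval -0.44 to 0.76). Its other probe sets, by level, gave -0.08, 0.28 and, below the median level, -1.71 (SE 0.76). The mean over all 4 probe sets gave -0.34, and without both arrays numbered 1 the brightest gave -0.01. Nrp2, the co-receptor of Sema3f, stood at 11.30, 11.49 and 11.88 in the swap arrays, against 11.00, 11.80 and 11.92 in the control arrays. Control array 1 was its lowest, and the difference was -0.02 (SE 0.34, 95% interval -0.86 to 0.82).

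The A-type plexins, which pair with neuropilins and bind class 6 semaphorins, were all at or above the median level, and all 4 had an interval within 2-fold. Plxna1 averaged 10.33 ± 0.15 in the swap arrays and 10.34 ± 0.09 in the control arrays (SD, n = 3 each). Its 6 arrays spanned 0.29 log2 units, the narrowest spread in the family, and the difference was -0.01 (SE 0.21, 95% interval -0.54 to 0.51). Plxna2 stood at 10.88, 10.52 and 9.93 in the swap arrays, against 10.32, 10.16 and 10.20 in the control arrays, where the 3 control arrays lay inside the wider range of the swap arrays, with a difference of 0.22 (SE 0.30, 95% interval -0.53 to 0.97). It was 0.00 without swap array 1 and 0.48 without swap array 3. Plxna3 stood at 8.21, 8.11 and 8.91 in the swap arrays, against 8.10, 8.58 and 8.70 in the control arrays, and its difference was -0.05 (SE 0.32, 95% interval -0.85 to 0.75). Plxna4, which acts with plexin A3 in sensory and sympathetic axons, stood at 7.44, 7.32 and 7.49 in the swap arrays, against 7.36, 6.83 and 7.18 in the control arrays. Its difference was 0.30 (SE 0.24, 95% interval -0.29 to 0.89), and control array 2 was the lowest of the 6.

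Among the other plexins 0 passed limma's test. Plxnb1, the receptor of Sema4d, stood at 10.56, 9.65 and 9.95 in the swap arrays, against 9.52, 10.28 and 10.02 in the control arrays, with overlapping groups and a difference of 0.11 (SE 0.35, 95% interval -0.75 to 0.98). Plxnb2, the receptor of Sema4c, stood at 9.41, 9.11 and 9.40 in the swap arrays, against 8.82, 8.97 and 9.23 in the control arrays. Swap array 1 and swap array 3 lay above all control arrays and swap array 2 below control array 3, with a difference of 0.30 (SE 0.23, 95% interval -0.28 to 0.88). Plxnc1, the receptor of Sema7a, stood at 8.78, 9.12 and 9.34 in the swap arrays, against 8.89, 9.19 and 9.12 in the control arrays, and its difference was 0.01 (SE 0.25, 95% interval -0.60 to 0.63).

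Plxnb3 and Plxnd1 lay below the median level. Plxnb3 ranged from 5.25 to 7.13 in the swap arrays and from 5.52 to 6.13 in the control arrays. Plxnd1, the receptor of Sema3e and a plexin known from blood vessels, stood at 6.18, 6.25 and 3.92 in the swap arrays, against 6.41, 3.17 and 6.91 in the control arrays. This was the widest spread over 6 arrays among the 32 members, and its interval of -2.97 to 2.88 leaves large changes possible in either direction. Of the 11 endothelial markers 2 stood at or above the median level, Egfl7 and Flt1. The summed intensity of all 11 was 1140 to 1420 in the swap arrays and 990 to 1280 in the control arrays. limma called 0 of the 11. The defining genes Pecam1 and Cdh5 were below the median level, and the part of endothelial cells in the Plxnd1 values was not tested.

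Plxna4os1 lies inside Plxna4 in the RefSeq annotation and codes for no protein. It stood at 4.45, 4.87 and 5.41 in the swap arrays, against 6.19, 5.43 and 5.95 in the control arrays, all below the median level, and all 3 swap arrays lay under the lowest control array, which is close to the highest swap array. Its mean was 4.91 ± 0.48 in the swap arrays and 5.86 ± 0.38 in the control arrays (SD, n = 3 each). The difference was -0.94 (SE 0.35, 95% interval -1.82 to -0.07), with limma's unadjusted p = 0.0386 and adjusted p = 1.00, so it did not pass. With 64 intensity units added before log2 it was -0.37. Plxna4 itself, measured by another probe set, had a difference of 0.30.

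**Figure D3:**
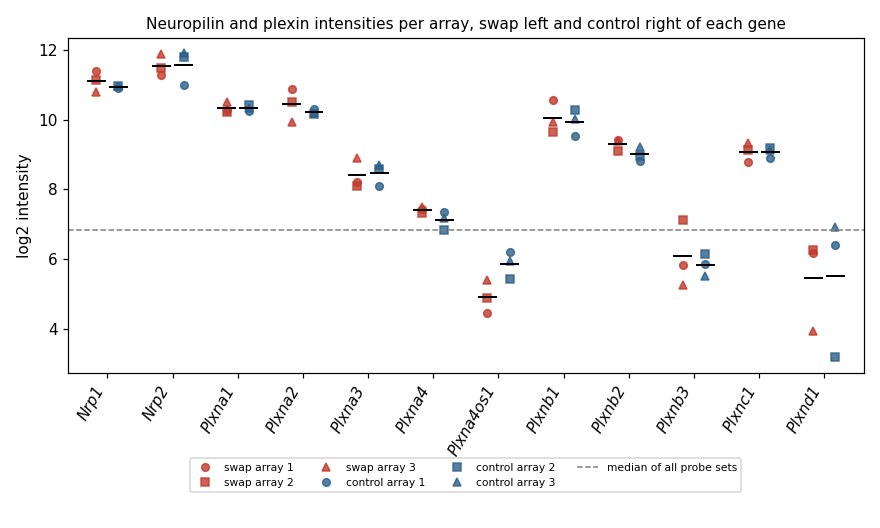
Log2 intensity of the 2 neuropilins, the 9 plexins and Plxna4os1 in each array (points), with swap arrays left and control arrays right of each gene, group means as black bars and the median of all probe sets (6.83) as a dashed line. Plxna4os1 is the 1 gene whose swap and control points do not overlap, and Plxnd1 spreads from 3.17 to 6.91.

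Several genes of the family were measured by more than 1 probe set, and those did not always give the same answer. The 32 members had 79 probe sets in all, and 25 members had more than 1. In 12 of these 25 all probe sets of the gene lay on one side of 0. Of the 9 genes with more than 1 probe set at or above the median level, 6 had all of those on one side. The same shares over all genes were not taken, so these counts do not set the family apart. All 4 probe sets of Nrp2 were at or above that level and gave differences of -0.36 to -0.02, all on the lower side. They read the same RNA samples, so they are not independent. The difference of the brightest, -0.02, changed sign under 5 of 15 alternatives. Sema7a gave 0.55 by the probe set used here and -1.35 by its other one, below the median level.

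Plxnc1 had the most probe sets, 6, and all 6 gave a difference above 0. They ranged from 0.01 for the brightest, which stands for the gene here, to 2.46 for the fifth by level. The second, at a mean level of 8.29, stood at 8.90, 7.99 and 8.74 in the swap arrays and at 8.65, 7.66 and 7.79 in the control arrays, with a difference of 0.51 (SE 0.40). The fifth stood at 5.69, 4.84 and 5.45 in the swap arrays and at 2.82, 2.68 and 3.09 in the control arrays. The groups did not overlap and both were below the median level, with a difference of 2.46 (SE 0.30, 95% interval 1.71 to 3.21). limma's unadjusted p was 0.000232 and its adjusted p was 0.312, so this probe set did not pass either. Over all 79 probe sets, 3 had an unadjusted p under 0.05 (4.57% of all probe sets did), and the same count did not overlap between genotypes (8.83% of all). These were 2 probe sets of Plxnc1 and that of Plxna4os1.

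**Figure D4:**
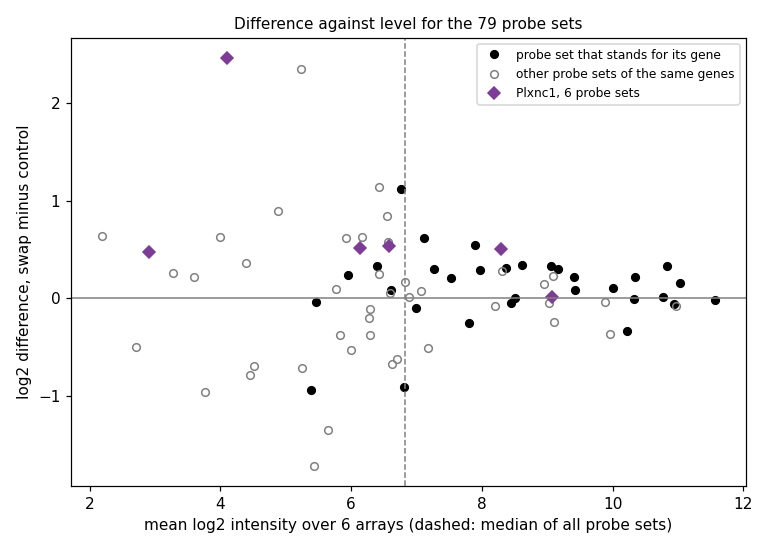
Log2 difference, swap minus control, against mean log2 intensity for the 79 probe sets (filled, the one that stands for its gene; open, the others; diamonds, Plxnc1), with a dashed line at the median of all probe sets (6.83). To the right of the line the probe sets that stand for their gene lie between -0.33 and 0.62. To its left 1 diamond reaches 2.46 at a mean level of 4.10, and an open point of Sema3e reaches 2.35 at 5.23.

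Within a genotype the arrays of a member could lie further apart than the means of the genotypes did. Sema3a was at 7.39 in swap array 1 and 7.62 in control array 1, with the other 4 arrays between 8.93 and 9.16. Array 1 was the lowest of its genotype in both genotypes for 7 of the 32 members (Sema3a, Sema3d, Sema4a, Sema6a, Sema6c, Nrp2 and Plxnc1) and for 17.4% of all genes, so this order was about as common in the family as elsewhere on the array. The summed intensities of the mesenchyme, erythroid, macrophage and endothelial markers followed it too, but not every gene of these lists did. Pdgfra, Slc4a1 and Csf1r did not. The order was not limited to these lists, since the neuron markers Nefl, Snap25 and Gap43 had it. The 11 mesenchyme markers, 8 of them at or above the median level, had a summed intensity of 3740, 6970 and 5370 in the swap arrays and 2990, 9560 and 6700 in the control arrays. Their brightest genes, Col1a1, Prrx1 and Twist1, were all lowest in array 1 of each genotype.

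The 7 erythroid markers, 4 of them at or above the median level, summed to 15700, 28100 and 31800 in the swap arrays and to 21000, 33800 and 31200 in the control arrays. Array 1 was again the lowest of each genotype, also for each of their brightest genes, the globins Hbb-y, Hbb-bh1 and Hba-x, and all 7 markers had a difference below 0, with a median of -0.27. The 10 macrophage markers, 5 of them at or above the median level, summed to 2330, 4460 and 4100 in the swap arrays and to 535, 16600 and 1570 in the control arrays. Their brightest genes, Csf1r, C1qb and Tyrobp, were lowest in control array 1 and highest in control array 2. limma called 0 genes of these 3 lists, and the part of these cells in the members' values was not tested.

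Of the neural lists, those of neurons and progenitors had the largest shares of genes with an interval within 2-fold. Every measured gene of these lists stood at or above the median level, where 68.1% of all genes had such an interval. The 12 neuron markers all stood at or above the median level, 11 had an interval within 2-fold, and their summed intensity was 69900 to 83900 in the swap arrays and 65400 to 79800 in the control arrays. Their brightest genes were Stmn3, Nefl and Elavl4, with differences of 0.03, 0.08 and 0.12. All 9 progenitor markers had intervals within 2-fold, and Vim, Fabp7 and Sox2, the brightest, differed by 0.02, -0.11 and -0.04. Of the 9 motor neuron markers, with Ebf1, Isl1 and Tbx20 the brightest, 6 had such an interval, and the median difference was 0.13. Their summed intensity was 40000 to 50900 in the swap arrays and 37600 to 41300 in the control arrays. Of the 5 measured neural crest and glia markers, led by Tfap2b, Tfap2a and Sox10, 4 had such an interval, and the median was 0.09. The 6 sensory ganglion markers, led by Pou4f1, Neurog2 and Eya1, went both ways, 3 higher and 3 lower, and 2 had such an interval. In this list 2 of 6 genes did not overlap between genotypes, Neurog1 with a difference of -0.52 (SE 0.26) and Eya2 with 0.65 (SE 0.31). Of all genes 8.85% did not overlap. The neuron list held 1 such gene, Nefm with 0.21 (SE 0.22), and the endothelial list 1, Cldn5 with 0.91 (SE 0.44). The progenitor, motor neuron, and crest and glia lists held 0. limma called 0 in each of these lists.

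The intracellular partners and co-receptors of semaphorin signalling formed a list of 48 genes, of which 47 were measured, 40 of them at or above the median level. limma called 0, against 0% of all genes. An unadjusted p under 0.05 was found for 2 of the 47, against 3.63% of all genes, and 4 did not overlap between genotypes (Arhgef11, Farp2, Ptk7 and Dpysl2), against 8.85% of all genes. Both shares are near those of all genes. Their median difference was 0.05, with 29 genes higher in the swap arrays and 18 lower. An interval within 2-fold was found for 28 of the 47, against 43.4% of all genes and 68.1% of those at or above the median level. The collapsin response mediator proteins, which carry the Sema3a signal to microtubules, had differences of -0.07 for Dpysl2, -0.04 for Dpysl3, 0.03 for Dpysl4, 0.05 for Dpysl5 and 0.25 for Crmp1. Dpysl2 stood at 14.39, 14.40 and 14.35 in the swap arrays, against 14.46, 14.46 and 14.42 in the control arrays.

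The smallest p of the partner list belonged to Arhgef11, a RhoA exchange factor that binds B-type plexins. It stood at 8.44, 7.88 and 8.25 in the swap arrays and at 7.63, 7.45 and 7.28 in the control arrays, with no overlap. The difference was 0.74 (SE 0.25, limma's unadjusted p = 0.0281 and adjusted p = 1.00). Farp2, an exchange factor for Rac that binds A-type plexins, stood at 6.77, 7.11 and 6.76 in the swap arrays and at 7.17, 7.76 and 7.69 in the control arrays. Its difference was -0.66 (SE 0.27, limma's unadjusted p = 0.0496 and adjusted p = 1.00). Next were the transmembrane pseudokinase Ptk7 (-1.13, SE 0.46), the oxidoreductase Mical2 (1.45, SE 0.71), which disassembles actin, and the plexin A1 partner Trem2 (1.20, SE 0.60), all 3 below the median level. Vegfa, the other ligand of neuropilin-1, differed by 0.06 (95% interval -0.53 to 0.64), and Itgb1, the integrin chain that binds Sema7a, by -0.18.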

How the data were processed

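RNA of sorted cells was measured on 6 arrays, 3 of each genotype. Each deposited value is the intensity of a probe set on a linear scale. The submitters' processing notes name the affy package. The sources used here do not say how background was removed or probes were summarised. The submitters had scaled every array to 1 common level (a 2% trimmed mean of 500). The 64 array control probe sets were left out, and log2 was taken with no offset.

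Genes were named from the platform's probe table, for the 34945 probe sets with 1 gene symbol. Of a gene's probe sets the one with the highest mean over 6 arrays was used. limma (version 3.58.1, lmFit then eBayes, under R 4.3.3) gave the differences over 45037 probe sets, with Benjamini-Hochberg adjustment of two-sided p and no covariates, and the script was tested on simulated data. The number of arrays limits the precision. With 3 against 3 arrays an exact permutation test cannot go below 0.1, so none is given.

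The members, the gene lists, the tests and the alternatives were chosen with earlier results of these data known. Every member may be named. Partner genes were named by the 5 smallest p and marker genes by the 3 highest means, and other named genes of these lists were chosen after their values were seen. Without scan dates no batch could be tested. The protein of the swap locus is not named here.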

Additional observations from a re-analysis of the deposited data

How the results depend on the processing

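limma called 0 members, 0 partner genes and 0 probe sets or genes under all 15 alternatives run, with a smallest adjusted p of 0.248. Of 473 recomputed differences of the 32 members 420 kept their direction, 53 turned in differences that had not passed, and 0 became called. Of the members 13 kept their direction under every alternative that gave them a value. The members' median difference was 0.06 without both arrays numbered 1, and 0.11 to 0.18 with 1 array left out.

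With the replicate number as a block 0 members and 1 partner gene had an unadjusted p under 0.05, and no call changed. The main fit did not take the numbers as pairs. Deviations of same-numbered arrays correlated at 0.234, 0.031 and 0.224, and those of differently numbered arrays between -0.287 and 0.123. Whether same-numbered arrays were handled together was not tested. Members with an unadjusted p under 0.05 numbered 0 with the block (4.12% of all genes), with the filter at the median level, which leaves out Plxna4os1 (3.25%), with the offset of 64 (3.99%), with the trend and robust prior (3.23%) and without both arrays numbered 1 (3.75%). With the mean over all probe sets there were 2, Plxna4os1 and Plxnc1 (4.40%), and with 1 array left out 0 to 2 (3.40 to 4.08%). Without control array 2 these were Plxna4os1 and Sema3g. For partner genes the count was 1 with median centring (3.62% of all genes), the trend and robust prior (3.23%) or the mean over probe sets (4.40%). It was 3 with the highest probe set only (4.25%) and 0 without both arrays numbered 1 (3.75%). With 1 array left out it was 0 to 3 (3.40 to 4.08%).

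Members whose arrays do not overlap numbered 0 with the filter (8.19% of all genes), 2 with quantile normalization (9.01%), 4 with median centring (8.01%), 2 with the mean over probe sets (8.91%) and 8 without both arrays numbered 1 (31.1%). With 1 array left out they numbered 3 to 5 (16.8 to 20.4% of all genes). Over all probe sets or genes, 838 had an unadjusted p under 0.05 with the filter, 801 with the mean over probe sets and 774 with the highest probe set only, each over fewer features than the 45037 that gave 2060.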
